A study of Mus musculus with 16 samples.

Results

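The 42 nuclear receptor genes described here were named by symbol and looked up in the GENCODE vM21 annotation of the mouse genome (mm10), which held 21755 protein-coding genes on the chromosomes of the loop list. The rule that names them uses no measured value. In Micro-C, crosslinked chromatin is digested to nucleosomes by micrococcal nuclease and ends in contact are ligated, so that sequenced pairs record which positions lay close together. Whole cochleae of P0 C57Bl/6 mice, for which the labels name no treatment, gave 4 Micro-C libraries (the series' design text gives the age as P0/1), and the authors merged these libraries before they called loops in 10 kb bins. Replicates 1, 2 and 3 are called biological and replicate 4 technical in the results text of the source, while all are called biological in its supplement. There was therefore 1 loop list and no comparison group, and neither a spread between replicates nor a test between conditions could be given.

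Nuclear receptors are transcription factors that bind DNA through a zinc finger domain, and many of them are switched by small fat-soluble ligands such as thyroid hormone, retinoic acid, steroids, bile acids and vitamin D. Many bind as dimers to copies of the hexamer AGGTCA, often with a retinoid X receptor as partner, and exchange corepressors for coactivators when the ligand arrives. In the cochlea, thyroid hormone receptor beta is needed for the development of hearing in mice, retinoic acid signalling takes part in the patterning of the inner ear, and loss of the oestrogen-related receptor Esrrb impairs hearing.

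The list held 6798 loops, each a pair of bins with its false discovery rate (FDR), the loop caller's q-value, which reached at most 0.1. The cochlea is a mixture of sensory, supporting, neural, mesenchymal and vascular cells, so a loop of the merged list cannot be assigned to a cell type, and the list holds no measure of expression by which the labelled tissue could be checked. A loop was counted as anchored at a gene when a bin at one of its ends, an anchor, overlapped the gene body or lay within 20 kb of the gene's start site, its annotated 5′ end. A loop was counted as spanning a gene when the gene body lay wholly between its anchors. Loop distance was measured from bin start to bin start. Shares are given with their 95% intervals by Wilson's method, which account for counting alone, over genes or loops, and leave out variation between animals.

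Of the 42 receptor genes, 22 carried at least 1 anchored loop (52.4%, interval 37.7 to 66.6), against 35.5% of all protein-coding genes. A loop spanned 21 of them (50%, interval 35.5 to 64.5), against 28.1% of all genes. Of the 42, 13 were both anchored and spanned (31%, interval 19.1 to 46, against 13% of all genes). At 3 of these 13, Esr2, Nr1i3 and Nr1d1, the spanning loops were the anchored ones themselves, which leaves 10 with separate loops of each kind (23.8%, interval 13.5 to 38.5, against 8.98%). The 9 that were only anchored (21.4%, interval 11.7 to 35.9, against 22.4%) and the 8 that were only spanned (19%, interval 9.98 to 33.3, against 15.1%) lay near the shares over all genes, and 12 had neither kind (28.6%, interval 17.2 to 43.6, against 49.5%). The receptor genes were thus met by loops more often than the average gene, while an anchor close to the start site was about as common as elsewhere. Only 11 of them had an anchor within 20 kb of the start site (26.2%, interval 15.3 to 41.1, against 27.2% of all genes), and 2 had an anchor in the bin of the start site itself (4.76%, interval 1.32 to 15.8, against 7.1%). Anchored loops numbered 2 or more at 6 receptor genes (14.3%, interval 6.72 to 27.8, against 13.2% of all genes).

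**Figure D1:**
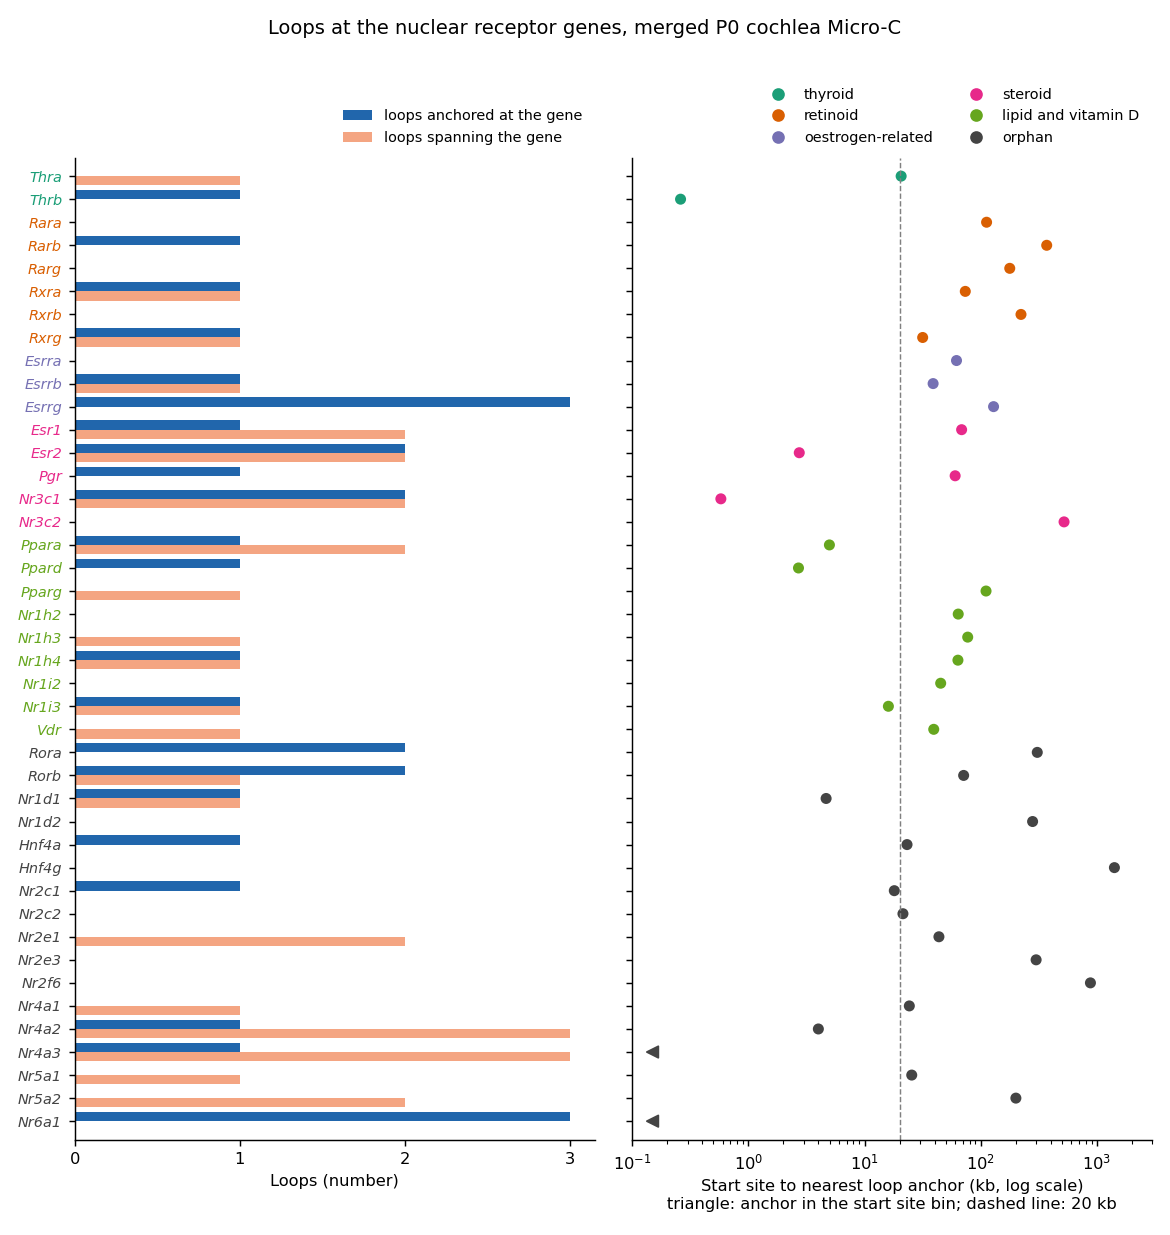
Left, the number of loops anchored at (blue) and spanning (orange) each of the 42 receptor genes. Right, the distance from each start site to the nearest loop anchor in kb on a log scale, coloured by receptor group. Esrrg and Nr6a1 had the most anchored loops, 3 each, Nr4a2 and Nr4a3 had the most spanning loops, 3 each, and Hnf4g lay farthest from an anchor, at 1412 kb.

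Gene length went along with the anchored share. The receptor genes had a median length of 56.5 kb, against 17.4 kb over all protein-coding genes, and a longer body offers more bins in which an anchor can fall. Among receptor genes under 20 kb, 3 of 9 were anchored (33.3%, interval 12.1 to 64.6, against 24.4% of all genes of that length). Between 20 and 100 kb the count was 10 of 20 (50%, interval 29.9 to 70.1, against 40.3%), and above 100 kb it was 9 of 13 (69.2%, interval 42.4 to 87.3, against 72.4%). At the rates of all genes in these 3 length classes, 19.7 of the 42 would be anchored, or 46.9%, so most of the distance between 52.4% and 35.5% moved with length.

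The spanned share did not move with length in this way. Loops spanned 4 of 9 receptor genes under 20 kb (44.4%, interval 18.9 to 73.3, against 26% of all genes of that length), 11 of 20 between 20 and 100 kb (55%, interval 34.2 to 74.2, against 29.6%) and 6 of 13 above 100 kb (46.2%, interval 23.2 to 70.9, against 33.8%). The rates of all genes in the same classes would give 12.7 spanned genes, or 30.1%, where 21 were counted, and 16.6 genes with neither kind of loop, where 12 were counted. Thra and Nr1d1 share a loop, as do Nr5a1 and Nr6a1, so the 42 are not wholly independent.

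**Figure D2:**
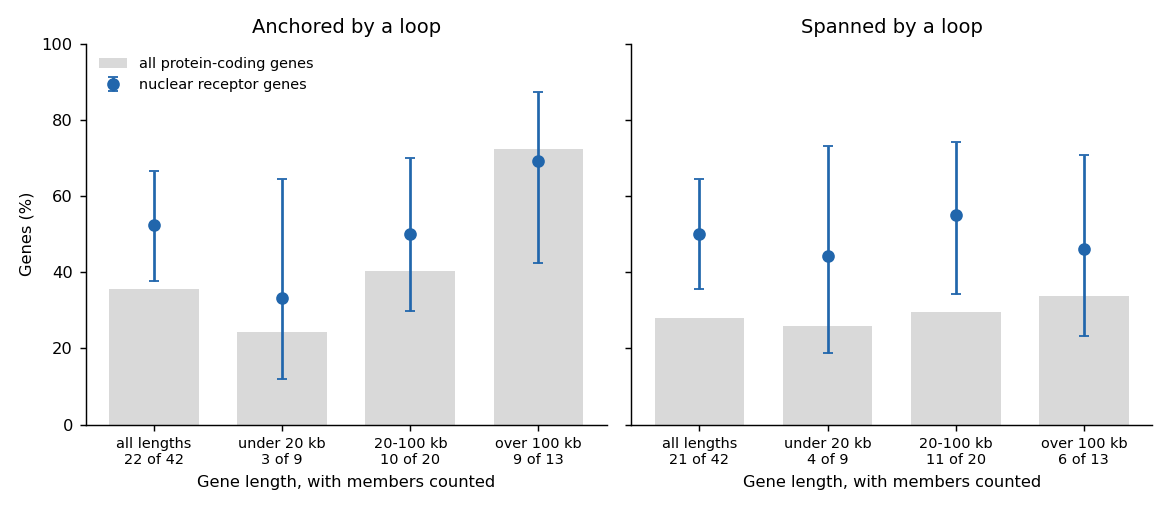
Percentage of genes with an anchored loop (left) and a spanning loop (right), for all lengths and for 3 length classes. Bars show all protein-coding genes, and points with 95% Wilson intervals show the receptor genes, whose counts stand under the axis. The anchored share rose from 33.3% under 20 kb to 69.2% over 100 kb beside a like rise in all genes, and the spanned share lay between 44.4% and 55% in the 3 classes, above the bars at 26% to 33.8%.

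The thyroid hormone receptors differed in the kind of loop they had. Thrb, which encodes the receptor needed for hearing, carried 1 loop of 300 kb with an FDR of 0.00565, and 40.4% of the list ranked ahead of it by this measure. Its first anchor (chr14:17650001-17660000) ended 261 bp upstream of the start site of this 378 kb gene, and its other anchor (chr14:17950001-17960000) lay in an intron, 78.0% of the way along the gene and 2821 bp before the start of a shorter coding transcript. The loop therefore joined the far 5′ promoter region of Thrb to the neighbourhood of an internal start. Thra, the gene of the other thyroid hormone receptor, had no anchored loop and was spanned by 1 loop of 70 kb whose nearest anchor lay 20.6 kb from its start site, just outside the 20 kb window.

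The sequences at the 5′ side of the Thrb loop are shown because the anchor borders the start site. The first line gives the best match in the anchor bin to the 14-base CTCF consensus with at most 1 mismatch, in capitals with 8 bases on each side, and CTCF is the DNA-binding protein at which cohesin-extruded loops often stop. The second line gives the RefSeq promoter window of Thrb (GRCm38.p6), 250 bases before to 50 after the start, which lay 959 bp from the anchor, with AGGTCA in capitals.
Thrb upstream anchor, chr14:17659146-17659159, plus strand: ccttgcagCCACCAGGGGGCTGtctggtta
Thrb promoter, chr14:17660710-17661009, plus strand: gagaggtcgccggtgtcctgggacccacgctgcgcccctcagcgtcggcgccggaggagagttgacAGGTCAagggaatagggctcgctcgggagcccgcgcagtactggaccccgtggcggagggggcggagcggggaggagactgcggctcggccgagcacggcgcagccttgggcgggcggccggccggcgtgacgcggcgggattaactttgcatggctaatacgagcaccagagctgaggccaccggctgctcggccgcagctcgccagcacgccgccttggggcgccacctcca
The consensus match pointed into the loop, and the intronic anchor held no match within 1 mismatch.

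Thra and Rara on chromosome 11 and Thrb and Rarb on chromosome 14 are pairs of related genes, each with a Rev-erb gene nearby, Nr1d1 or Nr1d2, which encode haem-binding repressors of the circadian clock. On chromosome 11 the start sites of Thra and Nr1d1 lay 34.7 kb apart, and the 3′ ends of these convergent genes overlap. The 70 kb loop (chr11:98710001-98720000 to chr11:98780001-98790000, FDR 0.00473) spanned both, with its right anchor 4668 bp upstream of the Nr1d1 start site. Rara, 187 kb from Thra, had neither an anchored nor a spanning loop, and its start site was 112 kb from the nearest anchor. On chromosome 14 no loop joined or spanned any pair of Thrb, Rarb and Nr1d2, whose start sites lay 579 to 1420 kb apart, and Nr1d2 had neither kind of loop.

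The CTCF consensus matches at the Thra and Nr1d1 loop are given because this loop closes around 2 receptor genes. Capitals mark the 14-base match, and both matches lay on the minus strand, so that they did not face each other.
Left anchor, chr11:98710592-98710605, minus strand: catgctgaCCACTAGGTGGCAGcaccgctc
Right anchor, chr11:98787960-98787973, minus strand: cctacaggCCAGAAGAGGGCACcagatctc

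Among the retinoid receptor genes, 3 of 6 had an anchored loop (50%, interval 18.8 to 81.2), with an anchor within 20 kb of the start site at none of them. Rarb, a retinoic acid receptor that is itself a retinoic acid target, had a loop of 950 kb with an FDR of 0.00179, the third longest at any receptor gene. One anchor (chr14:16440001-16450000) overlapped exon 4 of 8 of the transcript with the longest coding sequence. It lay 369 kb from the Rarb start site and 125 kb from the nearest annotated transcript start of the gene. The other anchor (chr14:17390001-17400000) held no protein-coding gene. The loop thus covered the Rarb start site between its anchors and ended 260 kb short of the Thrb start site. Only 7.13% of all loops were longer.

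The retinoid X receptor genes Rxra and Rxrg, whose products are the common dimer partners, had loops of similar build. The Rxra loop spanned 200 kb (chr2:27550001-27560000 to chr2:27750001-27760000, FDR 0.000897), and its inner anchor held exons 6 to 10, the last of the gene. The Rxrg loop measured 220 kb (chr1:167410001-167420000 to chr1:167630001-167640000), and its inner anchor held exons 5 to 10, again the last. Its FDR of 0.000123 was among the 3 lowest at any receptor gene. Both loops reached from the 3′ part of the gene across the start site to a bin upstream that held no protein-coding gene, 121 kb before the start site for Rxra and 183 kb for Rxrg by bin centre. The inner anchors lay closer to other annotated transcript starts than to the 5′ end. For Rxra the nearest was 9.8 kb away, and the nearest of a coding transcript 39418 bp. For Rxrg the nearest was that of a coding transcript, 11.7 kb away. Each of these genes was also spanned by a longer loop, of 430 kb at FDR 0.0736 for Rxra and 500 kb at FDR 0.0729 for Rxrg. Rara, Rarg and Rxrb had neither kind of loop, and their start sites lay 112, 178 and 222 kb from the nearest anchor.

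Of the oestrogen-related receptor genes, which encode regulators of energy metabolism that act without a known hormone, 2 of 3 were anchored (66.7%, interval 20.8 to 93.9), again with no anchor within 20 kb of a start site. Esrrb had 1 loop of 270 kb (chr12:86130001-86140000 to chr12:86400001-86410000) with an FDR of 0.000395. The inner anchor lay in an intron 38.9 kb downstream of the gene's 5′ end and 11.6 kb before the nearest other transcript start, and the outer anchor overlapped Ift43. A further loop of 500 kb spanned Esrrb at FDR 0.00199, from the bin next to the same outer anchor.

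The Esrrb loop is the only one of the 30 with a CTCF consensus match without mismatch at both anchors, each given in capitals. The left match read on the plus strand and the right on the minus strand, so that they faced each other, the convergent arrangement.
Esrrb left anchor, chr12:86132968-86132981, plus strand: taatcttcCCAGCAGGGGGCAGacttcatc
Esrrb right anchor, chr12:86402925-86402938, minus strand: tctgtgcgCCACCAGAGGGCGCgctgggtc

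Esrrg carried 3 loops, of 830, 520 and 300 kb.
The FDR of these loops was 0.0381, 0.00135 and 0.0304. All of them ran from a bin upstream of the gene to an intron, with the inner anchors 351, 361 and 161 kb downstream of the 5′ end and 17.8 to 160 kb from the nearest annotated transcript start. The inner anchors of the longer 2 loops were adjacent bins (chr1:187960001-187970000 and chr1:187970001-187980000), so these loops converge on 1 place in the gene. Esrra, at 10.8 kb the short gene of the group, had neither kind of loop and lay 61.8 kb from the nearest anchor.

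**Figure D3:**
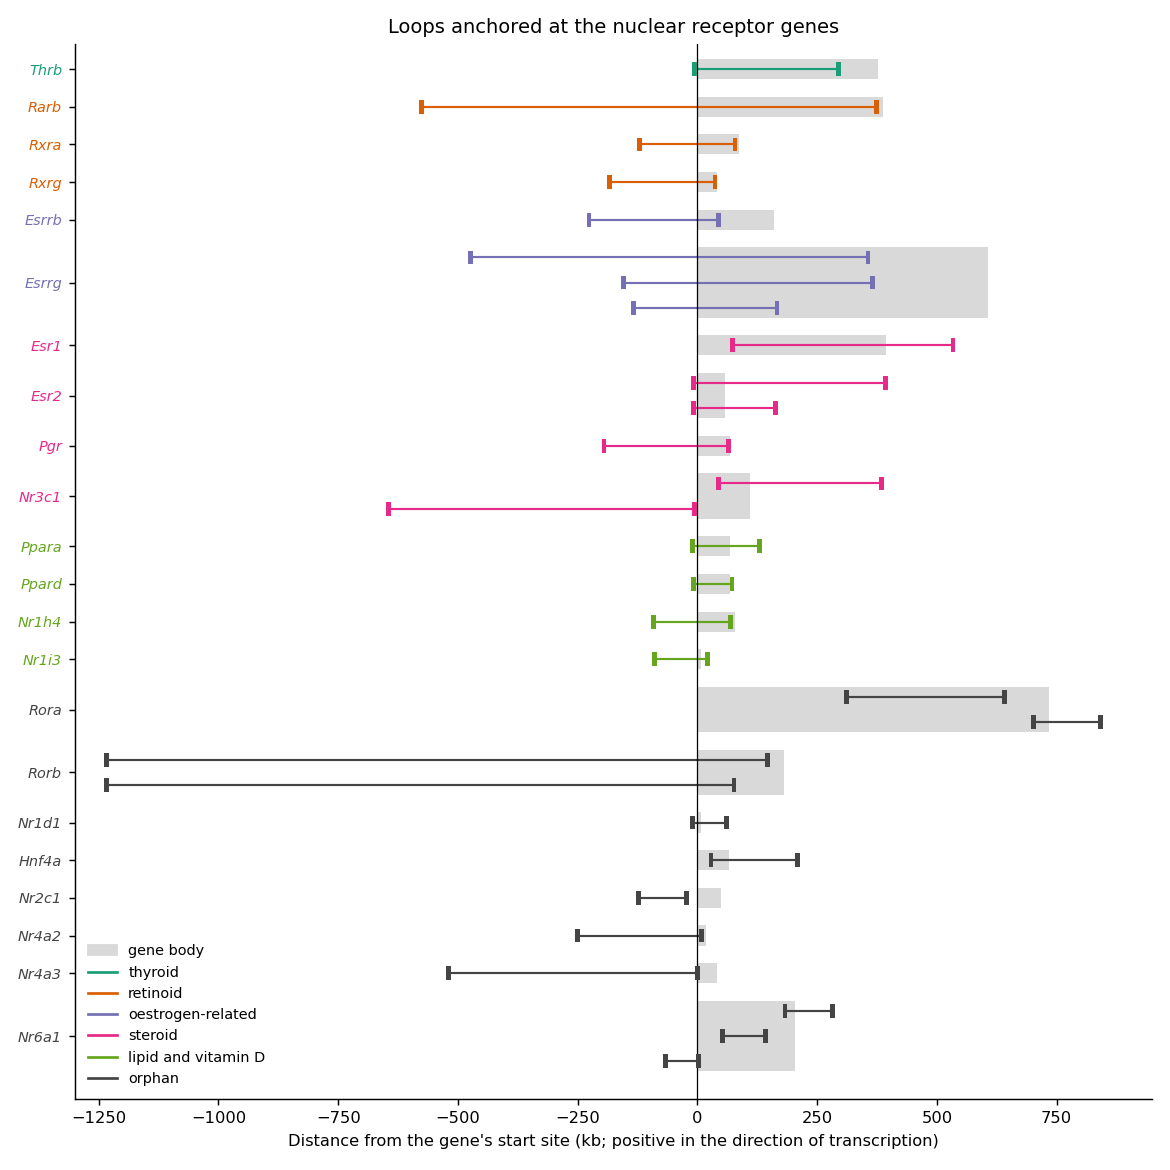
The 30 anchored loops drawn against the gene at which they are anchored, with the distance from the gene's start site in kb along the axis, positive in the direction of transcription. Grey bars are gene bodies, small blocks are the 10 kb anchor bins and lines join the anchors of 1 loop. The loops of Rarb, Rxra, Rxrg, Esrrb and Esrrg cross the start site from an upstream bin into the body. Loops of other groups do so too, among them those of Pgr, Nr1h4, Nr4a2 and Rorb. The Rorb loops reach farthest, to 1234 kb upstream.

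Steroid receptor genes were anchored in 4 of 5 cases (80%, interval 37.6 to 96.4, against 59.6% at the rates of all genes in their length classes), with 6 loops of 170 to 640 kb. Esr2, the gene of oestrogen receptor beta, had 2 loops of 400 and 170 kb (FDR 0.000828 and 0.0039) from 1 shared anchor (chr12:76180001-76190000) that began 2742 bp upstream of its start site. Both ran downstream across the whole gene, the shorter of them to a bin inside Syne2. Nr3c1, the glucocorticoid receptor gene, had a loop of 640 kb (FDR 0.0403) from a bin 580 bp upstream of the start site and a loop of 340 kb (FDR 0.03) from its first intron, which ran in opposite directions. Esr1, the gene of oestrogen receptor alpha, had a loop of 460 kb (FDR 0.0193) from an intron 68.4 kb into the gene to a bin inside Syne1. Pgr, the progesterone receptor gene, had a loop of 260 kb (FDR 0.00762) from its last 2 exons to a bin upstream. Esr2 and Nr3c1 thus had an anchor beside the start site, and Esr1 and Pgr did not. Longer loops spanned Esr1 (750 and 660 kb, FDR 0.000186 and 0.0444). Nr3c1 was also spanned, by loops of 900 and 1050 kb (FDR 0.0024 and 0.00393). Nr3c2, the gene of the mineralocorticoid receptor, is 346 kb long and had no loop of either kind, and its start site was 521 kb from the nearest anchor.

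The genes for receptors of fatty acids, oxysterols, bile acids, foreign compounds and vitamin D had short anchored loops. Among these 9 genes 4 were anchored (44.4%, interval 18.9 to 73.3), against 35.5% of all genes and 38.6% at the rates of their length classes. Loops spanned 6 of them (66.7%, interval 35.4 to 87.9, against 28.1% of all genes). Their 4 anchored loops measured 80 to 160 kb, and each had an FDR under 0.01. Nr1h4, the bile acid receptor gene, had the loop with the lowest FDR of all receptor genes, 2.6e-05, and only 3.19% of all loops had a lower one. It joined an intron between exons 7 and 8 of Nr1h4 (chr10:89460001-89470000) to the bin that holds the start site of Slc17a8 (chr10:89620001-89630000), 160 kb away, and Slc17a8 encodes the vesicular glutamate transporter of inner hair cells. The anchor lay 63.6 kb from the Nr1h4 start site, and the list does not tell which gene, if any, a loop serves.

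Ppard, the gene of a fatty acid receptor with a wide tissue range, had the second lowest FDR, 9.95e-05, in a loop of 80 kb that framed the gene. Its left anchor ended 2700 bp upstream of the start site and its right anchor overlapped the last exon. Ppara, the gene of the fasting-induced fatty acid receptor, had a loop of 140 kb (FDR 0.000126) from 4983 bp upstream of the start site, across the gene, to a bin 256 bp from the Gtse1 start site. Nr1i3, the gene of a receptor for foreign compounds, had a loop of 110 kb (FDR 0.000165) whose right anchor, 16.0 kb downstream of the start site, lay outside the gene and held the start site of Fcer1g. Longer loops spanned Ppara (260 kb, FDR 0.0467) and Nr1h4 (310 kb, FDR 0.01). Pparg, Nr1h3 and Vdr were spanned only, by loops of 290, 360 and 160 kb. Nr1h2 and Nr1i2 had neither kind of loop.

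The Ppard matches are shown because the loop ends closely beside both ends of the gene. The 14-base CTCF consensus match is in capitals, and the pair was convergent, with 1 mismatch on the left and none on the right.
Ppard left anchor, chr17:28225153-28225166, plus strand: atagccagCCAGCAGATCGCACaccctctt
Ppard right anchor, chr17:28309010-28309023, minus strand: accgtcttCCAGCAGGTGGCAGtgaagcgc

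Among the 17 orphan receptor genes, whose products were named before or without a known hormone, 8 were anchored (47.1%, interval 26.2 to 69, against 35.5% of all genes). Also 8 were spanned (47.1%, interval 26.2 to 69, against 28.1% of all genes). Their 12 loops ran from 70 to 1380 kb. Of these, 6 had an FDR under 0.05, compared with all 18 loops of the other receptor groups and 78.8% of the whole list. The median FDR of the orphan loops was 0.0375, against 0.00663 over all 30 loops, which include them, and 0.0113 over the whole list. The calls above 0.05 were spread over most of the 8 anchored orphan receptor genes, namely Rorb, Hnf4a, Nr4a2, Nr4a3 and Nr6a1. The anchored shares of thyroid, retinoid, oestrogen-related and orphan receptor genes, 50%, 50%, 66.7% and 47.1%, had intervals that overlapped widely. The rates of all genes in their length classes would give 56.4%, 43%, 56.4% and 46%, and with 2 to 17 genes a group no order between them could be read.

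Nr6a1, the gene of germ cell nuclear factor, carried 3 loops of 100, 90 and 70 kb, all short. The 70 kb loop (chr2:38920001-38930000 to chr2:38990001-39000000) had an FDR of 0.000713 and was the only anchored loop of a receptor gene with a protein-coding start site at both ends, its own and that of Wdr38. The 90 kb loop lay inside the gene, from exon 3 to the intron after it (FDR 0.0534), with a second promoter in its left anchor. The 100 kb loop (chr2:38640001-38650000 to chr2:38740001-38750000) joined exons 5 to 7 to a bin where Psmb7, a proteasome subunit gene, starts, at an FDR of 0.0918. This weakest of the 30 calls spanned Nr5a1, the gene of steroidogenic factor, which had no other loop.

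The sequences of the Nr6a1 start site are given because an anchor falls on it. The first 2 lines are the CTCF consensus matches of the 70 kb loop, with the 14 bases in capitals, and they were convergent, with no mismatch on the left and 1 on the right. The other 2 lines are RefSeq promoter windows (GRCm38.p6) that lie in anchor bins, the first in the start site bin with the cAMP response element TGACGTCA in capitals, and the second in the left anchor of the 90 kb loop, with AGGTCA read on the opposite strand in capitals.
Nr6a1 start site anchor, chr2:38927302-38927315, plus strand: tcccgctgCCACCAGGTGGCGCgcggccat
Wdr38 anchor, chr2:38998073-38998086, minus strand: cagagtagCCTCTAGAGGGCGCgctggccc
Nr6a1 first promoter, chr2:38926412-38926711, minus strand: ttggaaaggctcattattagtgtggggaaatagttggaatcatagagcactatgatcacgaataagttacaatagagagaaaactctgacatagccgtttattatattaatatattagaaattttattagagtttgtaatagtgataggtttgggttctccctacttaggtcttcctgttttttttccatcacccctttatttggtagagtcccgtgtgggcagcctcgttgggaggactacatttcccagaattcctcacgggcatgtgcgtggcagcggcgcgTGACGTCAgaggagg
Nr6a1 second promoter, chr2:38784466-38784765, minus strand: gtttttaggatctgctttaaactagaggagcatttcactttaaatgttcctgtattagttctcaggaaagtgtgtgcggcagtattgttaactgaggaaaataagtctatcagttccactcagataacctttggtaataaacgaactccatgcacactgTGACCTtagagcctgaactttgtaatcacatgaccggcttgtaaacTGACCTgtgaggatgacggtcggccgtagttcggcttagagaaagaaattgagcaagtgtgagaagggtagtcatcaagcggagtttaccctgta

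Nr4a3, an immediate early gene of the Nr4a family, was the other receptor gene with an anchor in its start site bin (chr4:48040001-48050000). The loop ran 520 kb upstream to a bin that held no protein-coding gene, at an FDR of 0.0559, so that 81.9% of the list ranked ahead of it. Its RefSeq promoter window lies in that bin and is given for that reason, with no capitals because neither AGGTCA nor TGACGTCA is in it.
Nr4a3 promoter, chr4:48045055-48045354, plus strand: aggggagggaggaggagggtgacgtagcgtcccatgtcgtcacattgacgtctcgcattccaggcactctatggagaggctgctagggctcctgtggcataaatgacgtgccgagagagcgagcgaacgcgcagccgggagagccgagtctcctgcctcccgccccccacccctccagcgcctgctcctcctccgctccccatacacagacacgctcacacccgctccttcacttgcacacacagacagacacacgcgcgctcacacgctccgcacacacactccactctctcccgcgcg
Nr4a3 was also spanned by 3 loops of 780, 870 and 950 kb (FDR 0.0432, 0.00994 and 0.00561). Its relative Nr4a2 had an anchored loop of 260 kb from exons 2 to 5 (FDR 0.0804) and lay inside 3 loops of 1580, 1720 and 1800 kb (FDR 0.0556, 0.00944 and 0.00165), the longest loops spanning any receptor gene, while Nr4a1 was spanned by 1 loop of 70 kb (FDR 0.0891). All members of this family were therefore spanned, against 28.1% of all genes, but they are too few to give a share. At Nr4a1 this rested on the 1 call with an FDR of 0.0891, which the stricter FDR limits leave out.

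Rorb had the anchored loops of longest reach, and its relative Rora had shorter ones. Rorb, expressed in sensory and cortical neurons, had loops of 1380 and 1310 kb (FDR 0.0172 and 0.0592) from exons 5 and 6 and from an intron to 1 shared bin (chr19:20340001-20350000), 1234 kb upstream of its start site, and only 1.99% of all loops were longer than the first. These were the 2 longest anchored loops and the only ones of 1 Mb or more. A loop of 1460 kb (FDR 0.00506) from the neighbouring bin spanned the gene. Rora, at 734 kb the longest receptor gene, had a loop of 330 kb within its body (FDR 0.00793), whose right anchor came within 319 bp of an internal transcript start, and a loop of 140 kb from the intron between exons 3 and 4 to a bin inside Anxa2 (FDR 0.0243). No anchor lay within 306 kb of its 5′ end.

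Of the remaining orphan receptor genes, Nr1d1 shared its loop with Thra, Hnf4a had 1 loop of 180 kb (FDR 0.0507) from an intron into Pkig, and Nr2c1 had 1 loop of 100 kb (FDR 0.00279) from an anchor 18.0 kb upstream. Nr2e1 and Nr5a2 were each spanned by 2 loops, of 320 and 410 kb and of 660 and 490 kb. Nr1d2, Hnf4g, Nr2c2, Nr2e3 and Nr2f6 had neither kind of loop. The nearest anchors to Hnf4g and Nr2f6, 1412 and 878 kb away, were farther than for 95.2% and 91.9% of all genes, while Nr2c2 missed the 20 kb window by little, at 21.4 kb.

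As loops, the 30 resembled the list from which they came. Their median distance was 260 kb (95% interval of the median from order statistics, 160 to 340), against 280 kb over 6798 loops. An FDR under 0.05 was given to 24 of 30 (80%, interval 62.7 to 90.5, against 78.8%), and an FDR under 0.01 to 17 (56.7%, interval 39.2 to 72.6, against 48%). Neither anchor held a protein-coding start site in 25 loops (83.3%, interval 66.4 to 92.7, against 78.1%). Each of these intervals included the value of the whole list.

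**Figure D4:**
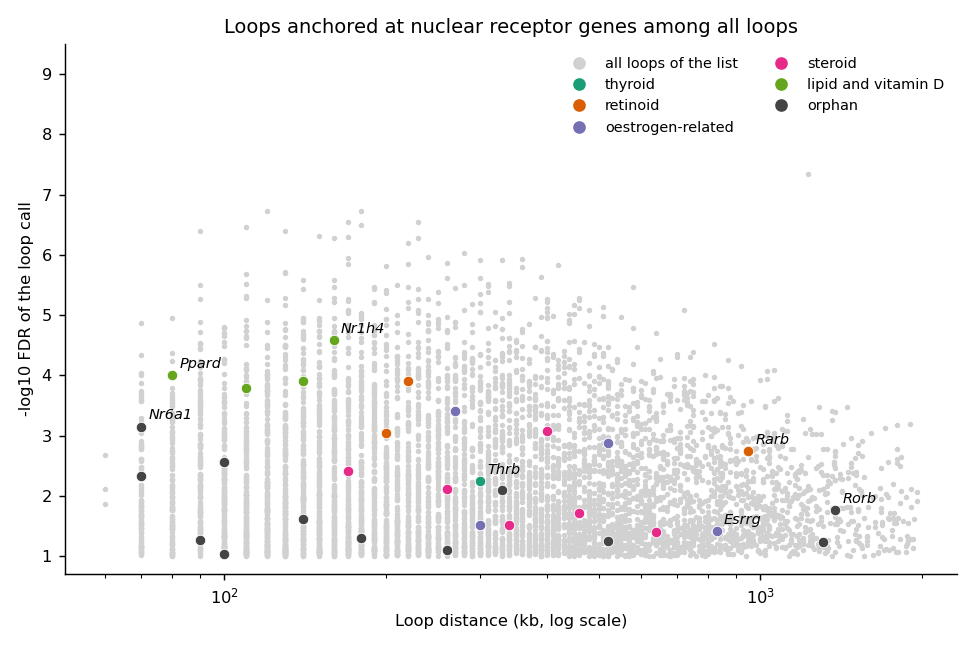
Loop distance in kb on a log scale against −log10 of the FDR for all 6798 loops (grey) and the 30 anchored at receptor genes, coloured by group. The 4 green points of lipid and vitamin D receptor genes lie at 80 to 160 kb with an FDR under 0.01, and the Rorb points lie at 1310 and 1380 kb.

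In all, there were 34 pairs of a receptor gene and an anchor, since both anchors lay at the same gene in 4 loops, those within or around Thrb, Ppard, Rora and Nr6a1. Over all protein-coding genes there were 13151 such pairs. In 25 of the 34 the anchor overlapped the gene body (73.5%, interval 56.9 to 85.4, against 67% of all pairs), with exons in 13 (38.2%, interval 23.9 to 55, against 51.8%) and introns only in 12. It lay in the body and outside the start window in 22 (64.7%, interval 47.9 to 78.5, against 37.8%), and more than 20 kb from every annotated transcript start in 11 (32.4%, interval 19.1 to 49.2, against 18.3%). The partner bin held a protein-coding start site in 3 pairs, those of Slc17a8, Psmb7 and Wdr38 (8.82%, interval 3.05 to 23, against 13.6%), and no protein-coding gene in 12 (35.3%, interval 21.5 to 52.1, against 36.2%). In long genes the counting rule admits more bins outside the start window, and how far these shares go along with length was not tested. The share in the body was near that of all genes.

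The CTCF consensus was found with at most 1 mismatch on either strand in 31 of the 58 anchor bins (53.4%, interval 40.8 to 65.7), against 48.4% of all anchor bins. These counts include bins that matched equally well on both strands. A strand could be read at both anchors of 8 loops, and 5 were convergent (62.5%, interval 30.6 to 86.3, against 68.3% of 1502 loops of the list), namely those of Esrrb, Nr6a1, Ppard, Hnf4a and the shorter loop of Rora. No pair was divergent, 2 lay on the minus strand and 1 on the plus strand. A sequence match is a description and does not show that CTCF was bound.

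Promoter windows of RefSeq were found for 38 of the 42 receptor genes, 58 windows in all, and none for Thra, Nr3c1, Hnf4g and Nr5a1. AGGTCA, searched on both strands, occurred in 11 of 58 windows (19.0%), from 10 genes, and in 16.2% of 32619 windows of all genes. These 10 were Thrb, Rara, Rarg, Rxra, Rxrg, Pparg, Nr1h4, Nr1d2, Nr5a2 and Nr6a1. TGACGTCA was in 2 windows (3.45%), those of Nr6a1 and Nr2e1, against 1.8% of all windows. The windows of receptor genes had a median GC content of 59.3%, against 53.0% over all windows.

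The genes that serve these receptors were described by the same counts. Of 20 coregulator genes, 11 were anchored (55%, interval 34.2 to 74.2, against 35.5% of all genes and 56.4% at the rates of all genes in the same 3 length classes), and 6 had an anchor in the start site bin (30%, interval 14.5 to 51.9, against 7.1% of all genes and 4.76% of the receptor genes). Nrip1, a corepressor bound in the presence of hormone, had 3 loops of 390 to 590 kb, and the coactivator genes Ncoa2 and Ncoa3 had 2 each. The coregulator genes had a median length of 105 kb, and neither of those under 20 kb was anchored.

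Of 24 genes for ligand synthesis, breakdown, binding and transport, 15 were anchored (62.5%, interval 42.7 to 78.8, against 38.4% at the rates of all genes in the same length classes), at a median length of 23.1 kb. Among those under 20 kb 6 of 11 were anchored (54.5%, interval 28 to 78.7, against 24.4% of all genes of that length), and the neighbours Cyp26a1 and Cyp26c1, of these 6, shared 1 loop. Those with 2 loops were Dio2, the deiodinase that activates thyroid hormone, the retinoic acid enzymes Aldh1a3, Rdh10 and Cyp26b1, and Cyp24a1, which breaks down vitamin D. The Dio2 loops measured 1230 and 580 kb (FDR 0.0644 and 0.00052), with an anchor in its start site bin. Cyp26b1, which degrades retinoic acid, had loops of 490 and 170 kb (FDR 0.00153 and 0.00261) from 1 shared anchor that lay 3.91 kb from its start site. In both lists together 26 of 44 genes were anchored (59.1%, interval 44.4 to 72.3, against 46.6% at the rates of their length classes), and these lists, like the receptor genes, were not drawn at random from the genome.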

How the data were processed

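Micro-C was performed on P0 mouse cochlea in 4 libraries, which the authors merged. By the counts in the study's supplement, most of the read pairs came from replicate 4, so the merged list was not an even pool. Per the study's methods, reads were aligned to mm10 with BWA-MEM, duplicates were removed with pairtools and loops were called with Mustache in 10 kb bins; BWA and Juicer are named in the submitters' processing notes, and versions are not given in the sources used here. For each loop the authors deposited a q-value (the FDR, 4.55e-08 to 0.1) and a detection scale, a score of the authors' loop caller that was used only as a filter. The list holds no contact counts, so the depth behind a single loop is unknown.

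No bin reached past the end of its GRCm38 chromosome. Bins were matched to the genes of GENCODE vM21 in Python 3.11.15 (numpy 2.4.6, pandas 2.3.3), scipy 1.17.1 gave the intervals, and matplotlib 3.10.9 drew the figures. The overlap and motif code was tested on simulated data. Exons refer to the transcript with the longest coding sequence. The 14-base CTCF consensus was written from general knowledge, the best match in a bin set its strand, and bins tied between strands were left out of the pairs. Promoters came from RefSeq (GRCm38.p6).

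The members, their groups and the 2 lists of associated genes were chosen with earlier results of these data known. Every thyroid, retinoid and oestrogen-related receptor gene was to be described, with the 5 genes with most loops (6 because of ties), the 3 longest loops, the 3 with the lowest FDR, start site anchors and shared loops, and up to 8 associated genes with most loops, of which 1 is not reported here and a tied gene is named instead; the other receptor genes and Gtse1, Fcer1g, Cyp26a1, Cyp26c1, Ift43, Syne1, Syne2, Anxa2 and Pkig were added after their values were seen. No test was made, since genes and loops of 1 merged list are not replicates. Alternatives were stricter FDR limits, start windows of 10 and 50 kb, the start window alone, all transcript starts, the smallest detection scale, merging of calls within 100 kb and an exact CTCF match. The 12 libraries of other assays were not analysed here.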

Additional observations from a re-analysis of the deposited data

How the results depend on the processing

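Of 82 values recomputed under the alternatives, 68 stayed within 1.5 times the reported count or within its interval and 14 moved further. In some of them the relation to the share of all genes changed. Leaving the gene body out moved most: with the start window alone, 11 receptor genes and 12 loops were left, the median distance was 155 kb, and 0 retinoid, 0 oestrogen-related and 5 orphan receptor genes were anchored, against 27.2% of all genes. The anchored share of the receptor genes was then 26.2%, no longer above that of all genes. At FDR < 0.05, 5 of 17 orphan receptor genes were anchored (30.9% of all genes) and 1 receptor gene had an anchor in its start site bin (5.74% of all genes). At FDR < 0.01 these counts were 4 and 1 (21.5% and 3.45% of all genes), and 17 loops were left. With a 50 kb window both thyroid hormone receptor genes counted as anchored (2, against 50.3% of all genes), and at the smallest detection scale 0 did (28.8% of all genes). With an exact CTCF consensus 1 pair was left, which was convergent (100%, interval 20.7 to 100, against 82.4% of such pairs in the list). These settings used fewer loops, another window or a stricter match, and the cause of each change was not tested. No paired analysis was possible because the loops were called once on merged libraries and the list gives no value per replicate.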

Other observations

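Receptor genes without any loop were spread over the groups. The 12 with neither an anchored nor a spanning loop included Rxrb, Nr1h2 and Nr2f6, which are among the shortest receptor genes at 6.59, 4.34 and 7.84 kb, and also Nr3c2 and Hnf4g, at 346 and 150 kb. Start sites of these 12 lay between 21.4 kb (Nr2c2) and 1412 kb (Hnf4g) from the nearest anchor. A gene counts as without a loop only at the limits of this list, where a contact present in few cells of the cochlea, or over less than the shortest distance called, 60 kb, would not be seen.

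Rarg and Nr4a1, 1003 kb apart on chromosome 15, shared no loop. Of the 8 pairs of receptor genes whose start sites lie within 2 Mb of each other, Thra with Nr1d1 and Nr5a1 with Nr6a1 had a loop in common.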
